A study of Mus musculus with 12 samples.

Results

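The autophagy core genes are 10 genes (Ulk1, Becn1, Wipi1, Atg5, Atg7, Atg12, Atg16l1, Map1lc3b, Gabarapl1 and Sqstm1), found by their symbols among the 45777 genes of the deposited table. All 10 were among the 15197 genes tested. They were measured in RNA of splenic CD4+ T cells from normal C57BL/6 wild type mice, 7 weeks old by the sample labels, isolated with magnetic beads and cultured for 3 days with anti-CD3 at 0.5 µg/ml. There were 4 groups with 3 samples each: no drug (Control), metformin, FK506 (tacrolimus), and both drugs together (Metformin+FK506, the combination), and all 4 groups carried the same anti-CD3 stimulus. Metformin is a biguanide used in diabetes, and FK506 inhibits the phosphatase calcineurin, which T cells need to pass on the signal of their antigen receptor. The drug doses of these cultures are not named in the sources used here, the study's methods give an older age for the mice and also list soluble anti-CD28, and nothing says whether the 3 samples of a group came from separate mice or cultures. The p-values therefore measure only the spread between these samples, which may be technical.

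Autophagy encloses cytoplasm in a double membrane, the autophagosome, and delivers it to the lysosome for breakdown. The kinase ULK1 starts the process, a lipid kinase complex held together by Beclin 1 (Becn1) makes the phosphatidylinositol 3-phosphate that WIPI proteins bind, and ATG7, ATG5, ATG12 and ATG16L1 attach the ubiquitin-like ATG8 proteins, among them those of Map1lc3b and Gabarapl1, to the growing membrane. The receptor p62 (Sqstm1) ties ubiquitin-marked cargo to ATG8 proteins and is itself degraded with it, and in T cells the pathway is known for its part in survival and metabolic change after activation. The levels below are of RNA. Autophagic flux was not measured in these libraries.

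The transcription factors TFEB, TFE3 and MITF, which drive lysosomal and autophagy genes, bind DNA at the letters CACGTG. The 250 bases before the annotated start are shown for Atg5 and Atg7, the members that hold those letters, and for Map1lc3b and Gabarapl1, a pair of ATG8 genes that moved in opposite directions with FK506. They are from RefSeq on GRCm38.p6, on the plus strand, at chr10:44268089-44268338, chr6:114670846-114671095, chr8:121590188-121590437 and chr6:129532942-129533191. Capitals mark CACGTG and the GC box GGGCGG, written CCGCCC where it lies on the other strand.
Atg5: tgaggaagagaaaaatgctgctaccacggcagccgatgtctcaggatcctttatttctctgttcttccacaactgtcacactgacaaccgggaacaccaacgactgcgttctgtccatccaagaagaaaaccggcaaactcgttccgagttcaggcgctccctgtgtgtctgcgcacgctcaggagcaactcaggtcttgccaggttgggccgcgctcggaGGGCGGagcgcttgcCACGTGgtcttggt
Atg7: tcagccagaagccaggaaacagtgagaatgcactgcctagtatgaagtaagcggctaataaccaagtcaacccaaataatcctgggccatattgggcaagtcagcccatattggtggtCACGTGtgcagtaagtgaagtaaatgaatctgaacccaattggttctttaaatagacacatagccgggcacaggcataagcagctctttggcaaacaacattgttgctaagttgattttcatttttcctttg
Map1lc3b: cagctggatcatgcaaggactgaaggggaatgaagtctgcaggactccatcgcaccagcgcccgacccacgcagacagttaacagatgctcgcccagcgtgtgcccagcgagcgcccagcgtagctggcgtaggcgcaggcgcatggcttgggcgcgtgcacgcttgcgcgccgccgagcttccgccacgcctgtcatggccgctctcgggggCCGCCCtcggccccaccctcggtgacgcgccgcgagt
Gabarapl1: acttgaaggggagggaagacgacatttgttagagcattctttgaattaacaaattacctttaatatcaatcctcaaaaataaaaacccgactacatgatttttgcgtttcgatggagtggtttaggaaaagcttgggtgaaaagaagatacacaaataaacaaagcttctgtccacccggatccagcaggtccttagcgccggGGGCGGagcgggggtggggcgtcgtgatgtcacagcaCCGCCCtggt
Promoters were found for 7 of the 10 members. CACGTG, which reads the same on both strands, stood at positions -14 to -9 from the start in Atg5 and -132 to -127 in Atg7, in 2 of 7 members and in 6.02% of all 32851 promoters of this length. GGGCGG, searched on both strands, was in 6 of 7 members and 32.7% of all promoters, and CCAAT in 1 of 7 (Atg7) and 33.8%. The core of the antioxidant response element, TGACNNNGC, and the forkhead letters GTAAACA were in none of the 7, against 10.2% and 3.17% of all promoters. In Atg7, 2 of the 4 CCAAT matches overlapped each other, and no motif overlapped a different one. The starts used for Atg5 and Atg7 lie inside the annotated span of the gene, so other starts exist. The Atg5 stretch only crosses the first base of its gene (44268322). The Atg7 stretch lies wholly within its gene, which begins at 114643127, so its CACGTG is before an internal start.

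Read totals per sample ran from 43402632 to 64290105. The members had between 701 and 47466 reads in every sample apart from Wipi1, which had 32 to 125. The T cell label was checked with 10 marker genes, whose summed FPKM (fragments per kilobase of transcript, scaled to library size) was 2026 to 2076 in Control, 1992 to 2071 with metformin, 1811 to 1908 with FK506 and 1960 to 2031 with both drugs. With FK506 against Control 4 of these 10 rose and 6 fell (median log2 fold change -0.30), among them Cd4 (1.22-fold), Cd2 (to 0.432 of Control) and Zap70 (to 0.646). Markers of other cells moved with FK506. The sum of 10 myeloid markers was 6.52 to 6.69 in Control, 8.98 to 10.2 with metformin, 1367 to 1419 with FK506 and 925 to 1046 with the combination, and 5 of the 10 had at most 3 reads in each Control sample, as did 5 in each metformin sample. C1qa and C1qc, used as markers of macrophages, were at 0 reads in both of these groups. The sum of 10 B cell markers was 61.6 to 65.6, 86.6 to 101, 920 to 966 and 444 to 477 in the same order. All 10 myeloid and all 10 B cell markers rose with FK506 against Control, and with metformin 8 B cell markers rose and none fell. Of the myeloid markers 1 rose with metformin (Cd68, mean FPKM 4.29 to 8.81) and 2 fell, Mpeg1 (2.21 to 0.557) and Csf1r, which had at most 2 reads in any Control sample. Without Lyz2, the myeloid sum was 389 to 426 with FK506 and 422 to 442 with the combination, and against FK506 the combination had 3 of the 10 myeloid markers higher (C1qb, C1qc and Cd68), 2 lower (Lyz2 and Mpeg1) and 5 not called. The sum of 7 CD8 T and NK cell markers was 10.4 to 10.8, 18.0 to 19.1, 20.8 to 21.9 and 20.6 to 21.8. With FK506 Eomes rose (mean FPKM 1.22 to 13.6), as did Klre1 (2.78-fold, adjusted p = 0.029), whereas Cd8b1 fell (7.90 to 5.44) and Cd8a was not called (adjusted p = 0.407). All 4 of the 7 that were tested rose with metformin (median log2 fold change 1.34). The B cell and myeloid markers move with every comparison in which FK506 is present on one side only, and all 10 B cell markers were lower with the combination than with FK506 alone. Their part in the values of the autophagy genes was not tested. In bulk RNA, fewer cells of a type and less RNA per cell cannot be told apart.

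Most of the core genes rose with each drug against Control, and the largest changes were those of Sqstm1, Map1lc3b, Ulk1, Atg7 and Wipi1. Metformin raised 7 of 10 members and lowered 2, where 28.6% of all genes tested rose and 27.4% fell. FK506 raised 6 and lowered 2, against 41.3% and 39.6% of all genes. The combination raised 6 and lowered 2 compared with Control, against 42.1% and 39.6%. The median log2 fold change of the 10 members was 0.25 with metformin, 0.35 with FK506 and 0.23 with both drugs, beside 0.01, 0.02 and 0.03 over all genes tested. These 3 comparisons share the Control samples. Rose and fell here mean an adjusted p under 0.05 in edgeR's quasi-likelihood test (Benjamini-Hochberg adjustment over all genes tested, n = 3 per group).

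Adding metformin to FK506 moved fewer members. The combination raised 4 of 10 and lowered 0 compared with FK506 alone, against 15.6% and 15.0% of all genes, with a median of 0.04 over the members and 0.00 over all genes. The number raised was 2 without FK506 replicate 1 or 3 or combination replicate 1 or 3. At an unadjusted p under 0.05, 2 members (Becn1 and Atg5) were lower, and DESeq2 and limma on log2(FPKM + 1) called 1 of them, Becn1. Compared with metformin alone the combination raised 6 and lowered 2, against 40.3% and 37.9% of all genes, with a median of 0.18 beside 0.02.

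**Figure D1:**
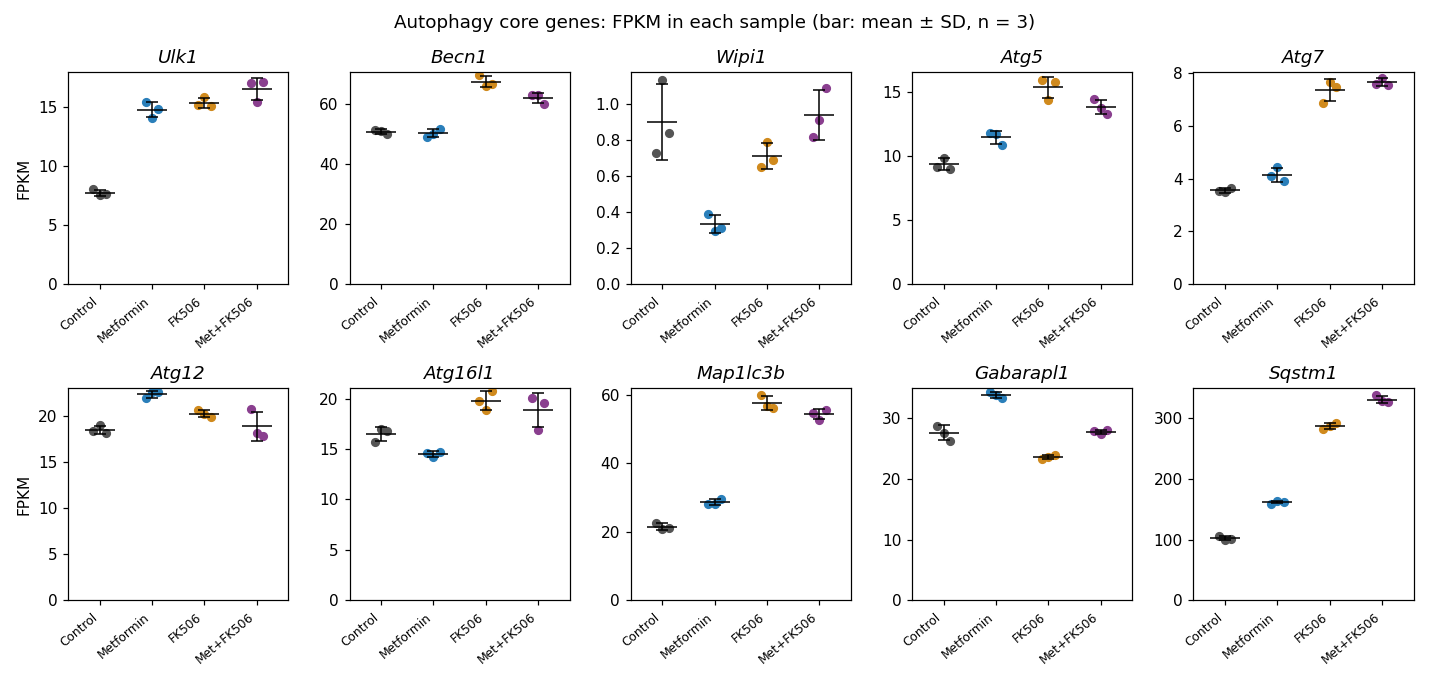
FPKM of each core gene in each of the 12 samples, by group; points are samples and bars the mean ± SD (n = 3). Sqstm1 climbs from 99.1 to 105 in Control to 327 to 338 with the combination without overlap between any groups, whereas Gabarapl1 is lowest with FK506 (23.2 to 24.0) and highest with metformin (33.3 to 34.4).

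The scale bears on small changes. The FPKM values are scaled to library size, and on library totals the median log2 fold change of all genes was 0.25 for FK506 and 0.25 for the combination against Control and 0.21 for the combination against metformin. The share of called genes that were higher was then 62.1%, 61.8% and 62.3%, compared with 51.1%, 51.6% and 51.6% under the TMM scaling used for the fold changes here. The fold changes below are therefore lower than the FPKM values alone would give wherever FK506 is on one side only, and members whose direction turns with the scale are named.

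Ulk1 (chr5:110784489-110810120), the kinase that starts autophagy, rose in all 3 drug groups. Its FPKM was 8.01, 7.50 and 7.65 in the Control samples and 15.4, 14.1 and 14.8 with metformin. It was 15.1, 15.8 and 15.1 with FK506 and 17.0, 15.4 and 17.2 with both drugs. Every treated sample lay above every Control sample, and the drug groups overlapped their neighbours. Ulk1 rose 1.87-fold with metformin (log2 0.91 ± 0.05, SE, adjusted p = 6.02e-11), 1.71-fold with FK506 (0.78 ± 0.04, adjusted p = 8.4e-11) and 1.88-fold with the combination (0.91 ± 0.04, adjusted p = 9.9e-12). The combination differed from metformin alone by a log2 value with a 95% interval from -0.09 to 0.10 (adjusted p = 0.945). On library totals this last difference passed the test at 0.19 (adjusted p = 0.00116). The combination was 0.13 ± 0.04 above FK506 on the log2 scale (adjusted p = 0.0296), a call that was lost without FK506 replicate 1 or 3 or combination replicate 1 or 3 (0.11 to 0.12, adjusted p = 0.119 to 0.132), without the filter on low values (0.11, adjusted p = 0.111), on log2(FPKM + 1) (0.099, adjusted p = 0.16) and after quantile normalization (0.13, adjusted p = 0.0508).

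Becn1 (chr11:101288258-101302286), the scaffold of the lipid kinase complex, rose with FK506 by an amount that depended on the scale. Its FPKM was 51.5, 51.2 and 50.1 in Control and 49.3, 50.2 and 51.9 with metformin, which overlapped. It was 69.9, 66.2 and 66.8 with FK506 and 63.1, 63.2 and 60.3 with both drugs, above Control in every sample and separate from each other. On the log2 scale Becn1 rose by 0.20 ± 0.04 (SE) with FK506 (adjusted p = 0.000306) and was at -0.06 with metformin (95% interval -0.14 to 0.03, adjusted p = 0.233). With the combination it was called higher than Control at 0.09 (adjusted p = 0.043), a call lost without any one of the Control samples, metformin replicate 1 or 2, or combination replicate 1 or 2 (0.08 to 0.10, adjusted p = 0.0506 to 0.137). It was also lost without the filter on low values (0.040, adjusted p = 0.461) and with the replicate block (0.09, adjusted p = 0.0624). Against FK506 the combination stood at -0.10 (adjusted p = 0.0655), which passed the test without FK506 replicate 2 (-0.13, adjusted p = 0.0358) or combination replicate 2 (-0.13, adjusted p = 0.0359). Against metformin it was higher by 0.15 ± 0.04 (adjusted p = 0.00267). On library totals the rises were 0.42 with FK506 (adjusted p = 8.43e-08), 0.31 with the combination (adjusted p = 3.25e-06) and 0.33 for the combination against metformin (adjusted p = 1.52e-06). Becn1 overlaps the gene Cntd1 in the annotation, whose FPKM was 0.236 to 1.66.

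Wipi1 (chr11:109573521-109611389), one of the proteins that bind the lipid made by the Beclin 1 complex, was the member with the lowest level and the one that fell most with metformin. Its FPKM was 0.730, 1.14 and 0.838 in Control and 0.391, 0.297 and 0.309 with metformin. With FK506 it was 0.649, 0.791 and 0.691, and with the combination 0.815, 0.910 and 1.09. The metformin samples lay below all others, while Control overlapped both FK506 and the combination. Metformin lowered Wipi1 to 0.362 of Control (log2 -1.47 ± 0.24, SE, adjusted p = 6.91e-05), and the combination was 2.51-fold above metformin (1.33 ± 0.24, adjusted p = 9.22e-05). On log2(FPKM + 1), a scale that understates changes of genes at so low a level, these values were -0.51 (adjusted p = 0.000345) and 0.54 (adjusted p = 9.73e-05), and after quantile normalization -0.57 (adjusted p = 0.000155) and 0.26 (adjusted p = 0.0166). The combination differed from Control by -0.14 (95% interval -0.61 to 0.33, adjusted p = 0.57), but was called lower after quantile normalization (-0.31, adjusted p = 0.00523) and stood above 0 on library totals (0.078, adjusted p = 0.748). The call of a fall with FK506 (-0.56 ± 0.22, adjusted p = 0.0294) was lost without Control replicate 2 (-0.37, adjusted p = 0.17), FK506 replicate 1 (-0.49, adjusted p = 0.0968) or FK506 replicate 3 (-0.54, adjusted p = 0.0708), on library totals (-0.34, adjusted p = 0.167) and on log2(FPKM + 1) (-0.15, adjusted p = 0.132). Wipi1 overlaps the gene Gm39442 in the annotation. With 32 to 40 reads in a metformin sample, its precision is lower than that of the other members.

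**Figure D2:**
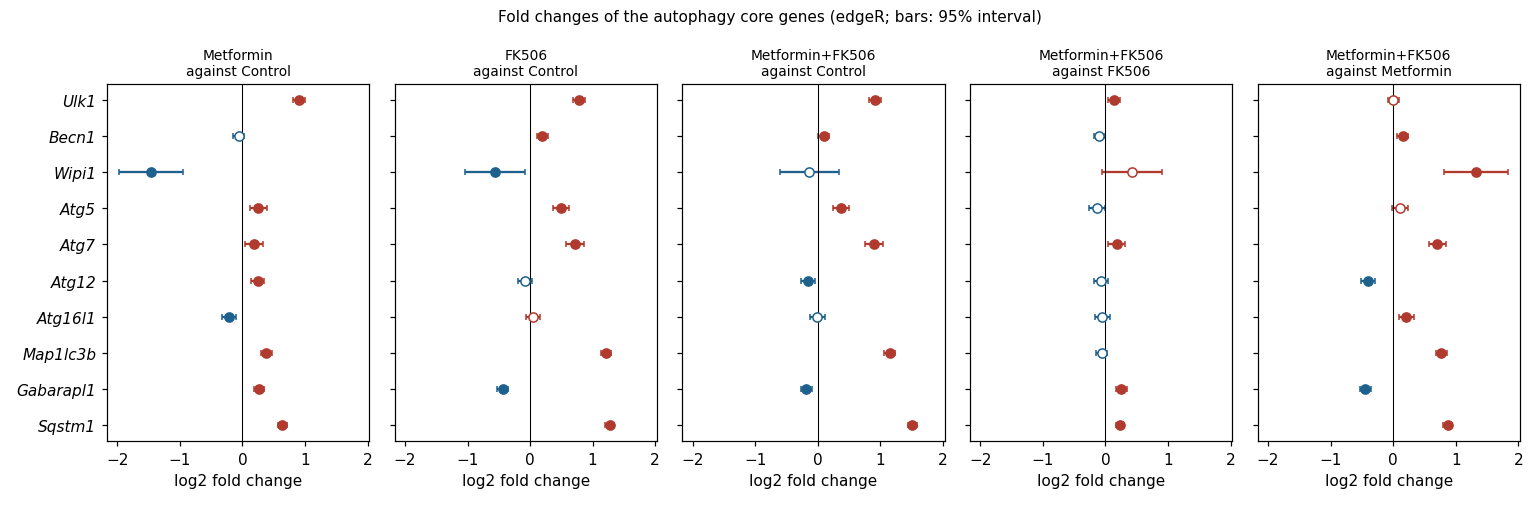
Log2 fold change of each core gene in the 5 comparisons of groups (edgeR, 12 samples); points are estimates, bars 95% intervals, filled points have an adjusted p under 0.05, red is higher and blue lower. Sqstm1, Map1lc3b and Ulk1 lie above 0 in all 3 comparisons with Control, Gabarapl1 changes side between metformin and FK506, and Wipi1 has the widest intervals.

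The members that conjugate ATG12 and the ATG8 proteins did not move as a unit. ATG7 is the enzyme that activates both ATG12 and the ATG8 proteins, and ATG12 joined to ATG5, together with ATG16L1, directs ATG8 proteins onto the membrane. Atg7 (chr6:114643127-114860604) had an FPKM of 3.53, 3.47 and 3.64 in Control, 4.09, 4.44 and 3.91 with metformin, 6.89, 7.68 and 7.49 with FK506, and 7.60, 7.83 and 7.55 with both drugs. The groups with FK506 lay above both groups without it and overlapped each other. Atg7 rose 1.65-fold with FK506 (log2 0.72 ± 0.07, adjusted p = 3.51e-08) and 1.86-fold with the combination (0.90 ± 0.07, adjusted p = 1.97e-09), and the combination was 1.63-fold above metformin (0.71 ± 0.07, adjusted p = 4.34e-08). Its rise with metformin was smaller (0.19 ± 0.07, adjusted p = 0.0262) and was not called without Control replicate 1 (0.18, adjusted p = 0.0762), Control replicate 2 (0.17, adjusted p = 0.0824) or metformin replicate 2 (0.14, adjusted p = 0.129), without the filter on low values (0.17, adjusted p = 0.0688) or after quantile normalization (0.13, adjusted p = 0.0807). The combination was 0.18 above FK506 (adjusted p = 0.0464), and that call was lost when any one sample other than metformin replicate 2 or 3 was left out (0.13 to 0.20, adjusted p = 0.0501 to 0.208), and among other settings on library totals (0.17, adjusted p = 0.0511), without the filter (0.16, adjusted p = 0.131) and on log2(FPKM + 1) (0.053, adjusted p = 0.514).

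Atg5 (chr10:44268322-44364299) rose with each drug. Its FPKM was 9.17, 9.90 and 9.04 in Control, 11.8, 11.7 and 10.9 with metformin, 15.9, 14.4 and 15.8 with FK506, and 14.5, 13.8 and 13.3 with both drugs. Control lay below metformin and metformin below both groups with FK506, which overlapped. On the log2 scale Atg5 rose by 0.26 ± 0.06 with metformin (adjusted p = 0.00203), by 0.50 ± 0.06 with FK506 (adjusted p = 1.2e-06) and by 0.37 ± 0.06 with the combination (adjusted p = 3.9e-05), the last being 0.58 on library totals. The combination stood at -0.13 against FK506 (adjusted p = 0.111), which passed the test without FK506 replicate 2 (-0.19, adjusted p = 0.0374). Against metformin it stood at 0.11 (adjusted p = 0.113), which passed on library totals (0.29, adjusted p = 0.00036) and without combination replicate 3 (0.15, adjusted p = 0.0453).

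Atg12, on chromosome 18, was highest with metformin. Its FPKM was 18.4, 19.0 and 18.2 in Control, 22.0, 22.6 and 22.6 with metformin, 20.7, 20.3 and 19.9 with FK506, and 20.8, 18.2 and 17.8 with both drugs. Metformin samples lay above all others, and the combination overlapped Control and FK506. Atg12 rose by 0.24 ± 0.05 with metformin (adjusted p = 0.000708) and was lower by 0.40 in the combination than with metformin (-0.40 ± 0.05, adjusted p = 2.21e-06; -0.22 on library totals). Its direction in the other comparisons with Control depended on the scale. FK506 stood at -0.08 (adjusted p = 0.14) and at 0.14 on library totals (adjusted p = 0.0215), and the fall called with the combination (-0.16 ± 0.05, adjusted p = 0.0105) became 0.06 on library totals (adjusted p = 0.287) and was lost without combination replicate 3 (-0.11, adjusted p = 0.0577). The combination against FK506 (-0.07, adjusted p = 0.312) passed the test without combination replicate 1 (-0.14, adjusted p = 0.0289). Atg12 overlaps Ap3s1 (FPKM 16.5 to 36.7), and whether the counting used strand is not stated, so reads of these genes may not be fully separated.

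Atg16l1 (chr1:87756007-87792428) was the conjugation member that fell with metformin. Its FPKM was 15.7, 17.0 and 16.8 in Control, 14.6, 14.2 and 14.7 with metformin, 19.8, 18.9 and 20.7 with FK506, and 20.1, 16.9 and 19.6 with both drugs. Metformin samples lay below all others. The log2 change was -0.22 ± 0.06 with metformin (adjusted p = 0.00354), and the combination was 0.21 ± 0.06 above metformin (adjusted p = 0.0025), or 0.39 on library totals. Against Control, Atg16l1 stood at 0.04 with FK506 (95% interval -0.07 to 0.16, adjusted p = 0.459) and at -0.00 with the combination (-0.12 to 0.11, adjusted p = 0.944). On library totals these values were 0.27 (adjusted p = 0.000315) and 0.21 (adjusted p = 0.00228).

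Map1lc3b and Gabarapl1, which encode ATG8 proteins of the LC3 and the GABARAP subfamily, moved in opposite directions with FK506. Map1lc3b (chr8:121590438-121598760) had an FPKM of 22.6, 20.7 and 21.0 in Control, 28.0, 28.1 and 29.6 with metformin, 59.9, 56.6 and 56.2 with FK506, and 54.7, 52.7 and 55.4 with both drugs. None of the 4 groups overlapped. Map1lc3b rose 1.30-fold with metformin (log2 0.38 ± 0.04, adjusted p = 7.42e-07), 2.32-fold with FK506 (1.21 ± 0.04, adjusted p = 6.58e-14) and 2.22-fold with the combination (1.15 ± 0.04, adjusted p = 1.29e-13). The combination was 1.70-fold above metformin (0.77 ± 0.04, adjusted p = 2.94e-11) and differed from FK506 by -0.06 (95% interval -0.15 to 0.02, adjusted p = 0.263). The annotation has Map1lc3b overlapping Zcchc14, whose FPKM reached 1.94.

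Gabarapl1 (chr6:129533192-129542331) had an FPKM of 28.8, 27.6 and 26.3 in Control, 34.4, 33.7 and 33.3 with metformin, 23.2, 23.6 and 24.0 with FK506, and 27.8, 27.3 and 28.0 with both drugs. FK506 samples lay below all others and metformin samples above all others, whereas the combination fell within the range of Control. On the log2 scale Gabarapl1 rose by 0.27 ± 0.04 with metformin (adjusted p = 3.91e-05) and was at -0.44 ± 0.04 with FK506 (adjusted p = 4.93e-08), a fall to 0.738 of Control. The combination was 0.26 ± 0.04 above FK506 (adjusted p = 0.000189) and below metformin (-0.45 ± 0.04, adjusted p = 3.92e-08). On library totals the fall with FK506 was -0.22 (adjusted p = 0.000188) and that against metformin -0.26 (adjusted p = 2.21e-05). Against Control it was called lower under TMM scaling (-0.18 ± 0.04, adjusted p = 0.000717) and stood at 0.03 on library totals (adjusted p = 0.449) and at -0.05 after quantile normalization (adjusted p = 0.152).

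Because these genes belong to one family, their shares of the summed FPKM of 5 ATG8 genes were also computed, which does not depend on the scaling of the library. The sum itself was 223 to 232 in Control, 254 to 262 with metformin, 343 to 366 with FK506 and 336 to 356 with both drugs. Gabarap, the most abundant, held a mean share of 60.1%, 58.0%, 61.5% and 60.6% in the same order. The share of Map1lc3b was 9.28% to 9.76% in Control, 10.7% to 11.6% with metformin, 16.0% to 16.5% with FK506 and 15.4% to 16.3% with both drugs. The share of Gabarapl1 was 12.2% ± 0.338 (SD, n = 3), 13.1% ± 0.190, 6.69% ± 0.287 and 8.05% ± 0.215.

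The FPKM of Map1lc3b divided by that of Gabarapl1 was 0.786, 0.752 and 0.798 in Control and 0.815, 0.833 and 0.887 with metformin. It was 2.58, 2.40 and 2.34 with FK506 and 1.97, 1.93 and 1.98 with both drugs. The groups did not overlap, and the order of these transcripts was reversed in every sample with FK506. No test of the ratio was run.

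**Figure D3:**
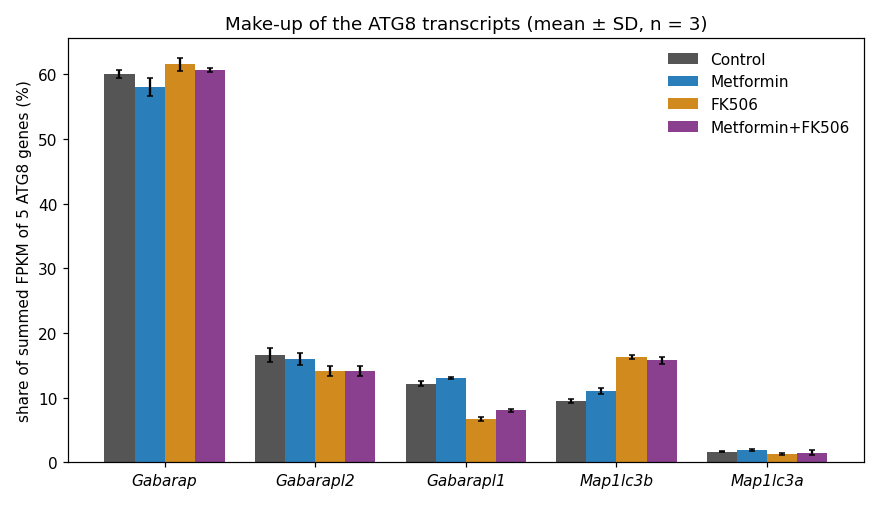
Share (%) of each of 5 ATG8 genes in their summed FPKM, by group; bars are means and error bars SD (n = 3). Gabarap holds 58.0% to 61.5% in all groups, while Map1lc3b rises from 9.48% in Control to 16.3% with FK506 and Gabarapl1 drops from 12.2% to 6.69%.

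Sqstm1 (chr11:50200152-50210820), the cargo receptor p62, was the most abundant member and the one that rose most with FK506 and with the combination. Its FPKM was 105, 99.1 and 101 in Control, 159, 163 and 163 with metformin, 282, 286 and 292 with FK506, and 338, 328 and 327 with both drugs. The groups stood in this order without overlap. Sqstm1 rose 1.55-fold with metformin (log2 0.63 ± 0.03, adjusted p = 1.23e-10), 2.42-fold with FK506 (1.28 ± 0.03, adjusted p = 2.72e-15) and 2.84-fold with the combination (1.51 ± 0.03, adjusted p = 3.69e-16). The combination exceeded FK506 by 1.17-fold (0.23 ± 0.03, adjusted p = 5.41e-05) and metformin by 1.83-fold (0.87 ± 0.03, adjusted p = 4.19e-13). Sqstm1 and Gabarapl1 kept their rise with the combination over FK506 under all 20 other settings tried. In the same comparison all 10 B cell markers were lower, and of the 10 myeloid markers 3 were higher and 2 lower. Of the 10 T cell markers 5 were higher and 2 lower. The part of such cells in the values of Sqstm1 and Gabarapl1 was not tested.

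The interaction term asks whether the effect of metformin depended on FK506. It is the log2 effect of metformin in the presence of FK506 minus its effect in the absence of FK506. It was called for 6 of 10 members, 1 higher and 5 lower, against 22.5% and 24.0% of all genes. The median was -0.18 over the members and -0.02 over all genes. The value for Ulk1 was -0.77 ± 0.06 (SE, adjusted p = 4.39e-08), since metformin raised it by 0.91 without FK506 and by 0.13 with it. The values for Map1lc3b (-0.45 ± 0.06, adjusted p = 8.66e-06), Sqstm1 (-0.40 ± 0.05, adjusted p = 2.81e-06), Atg5 (-0.39 ± 0.09, adjusted p = 0.00147) and Atg12 (-0.31 ± 0.07, adjusted p = 0.00195) were also below 0. Wipi1 went the other way, at 1.89 ± 0.33 (adjusted p = 0.000178), and at 0.69 on log2(FPKM + 1) (adjusted p = 0.000638). The 4 members not called were Becn1 at -0.04 (95% interval -0.16 to 0.08), Atg7 at -0.01 (-0.21 to 0.19), Gabarapl1 at -0.01 (-0.13 to 0.12) and Atg16l1 at 0.17 (-0.00 to 0.33). Atg16l1 passed the test without combination replicate 2 (0.23, adjusted p = 0.0103), and Becn1 was called lower after quantile normalization (-0.14, adjusted p = 0.0448).

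The 49 other genes of the pathway were all tested. Compared with Control, 33 of them rose with FK506 (67.3%, beside 41.3% of all genes tested) and 9 fell (18.4%, beside 39.6%). With metformin 25 rose (51.0%, beside 28.6%) and 5 fell (10.2%, beside 27.4%), and with the combination 31 rose (63.3%, beside 42.1%) and 9 fell (18.4%, beside 39.6%). Their median log2 fold changes were 0.46, 0.17 and 0.46. The combination raised 7 (14.3%) and lowered 6 (12.2%) against FK506, shares close to the 15.6% and 15.0% of all genes (median -0.01, with 4 raised without FK506 replicate 3). Against metformin it raised 27 (55.1%, beside 40.3%) and lowered 11 (22.4%, beside 37.9%), with a median of 0.23. The interaction was called higher for 4 (8.16%, beside 22.5%) and lower for 23 (46.9%, beside 24.0%), with a median of -0.19. On library totals the number that fell with FK506 was 3 and with the combination 4.

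By role, lysosomal biogenesis had the highest median change with FK506, while the largest single change was the fall of the cargo receptor Bnip3 given below. All 9 genes of lysosomal biogenesis rose with FK506 and with the combination against Control (median log2 1.54 and 1.64), and 7 of 9 rose with metformin (0.35). They include TFEB, TFE3 and MITF and the lysosomal proteases. The FPKM of Tfeb was 5.69 to 6.00 in Control, 9.36 to 9.89 with metformin, 18.4 to 20.5 with FK506 and 19.0 to 22.2 with the combination. The protease genes gave the largest rises with FK506: Ctsd by 2.90 ± 0.04 (mean FPKM 83.5 to 723), Ctsl by 2.42 ± 0.08 (1.44 to 8.95) and Ctsb by 2.33 ± 0.04 (37.9 to 220). Cathepsins are abundant in myeloid cells, whose markers rose in the same samples (sum 6.52 to 6.69 in Control and 1367 to 1419 with FK506), and the part of such cells was not tested.

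Metformin raised Ctsl by 1.46 ± 0.08, Tecpr1, a tethering factor for fusion with the lysosome, by 1.13 ± 0.04 and Mitf by 1.05 ± 0.16 on the log2 scale. With metformin 1 of the 10 myeloid markers rose and 2 fell. Of the 10 B cell markers 8 rose and none fell, and all 4 CD8 T and NK cell markers tested rose. The part of such cells in these metformin values was not tested. The combination gave its largest rises over Control in Ctsl (2.93 ± 0.08), Ctsd (2.82 ± 0.04) and Mitf (2.38 ± 0.16), and over metformin in Ctsd (2.58 ± 0.04), Ctsb (2.33 ± 0.04) and Plekhm1, an adaptor for lysosome fusion (1.50 ± 0.06). All of these had an adjusted p of at most 4.13e-05.

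Among the cargo receptors, Sqstm1 and the mitophagy receptors Bnip3 and Bnip3l moved in opposite directions against Control in all 3 drug groups. Bnip3, known as a target of hypoxia signaling, had a mean FPKM of 147 ± 4.54 (SD, n = 3) in Control and 20.6 ± 0.188 with metformin. It was 6.13 ± 0.277 with FK506 and 9.34 ± 0.649 with both drugs. On the log2 scale its change from Control was -2.86 ± 0.05 (SE) with metformin, -4.80 ± 0.06 for FK506 and -4.16 ± 0.05 for both drugs, and the combination was 0.63 ± 0.06 above FK506 (adjusted p = 6.81e-07) and below metformin (-1.30 ± 0.05, adjusted p = 1.39e-12). Bnip3l fell to between 0.340 and 0.380 of Control in all 3 drug groups. The smaller named falls against Control were Atg2b, a lipid transfer protein of the growing membrane (-0.62 ± 0.04 with FK506 and -0.51 ± 0.04 with metformin), and Atg13, a partner of ULK1 (-0.58 ± 0.05 with the combination).

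Between the combination and FK506, the other pathway genes that rose most were Bnip3 (0.63 ± 0.06, adjusted p = 6.81e-07), Ctsl (0.52 ± 0.07, adjusted p = 3.3e-05) and the receptor Optn (0.39 ± 0.10, adjusted p = 0.0103), the call for Optn being lost without FK506 replicate 3 (0.33, adjusted p = 0.0501). Uvrag and Rubcn, an activator and an inhibitor that bind the Beclin 1 complex, fell (-0.49 ± 0.05, adjusted p = 8.76e-07, and -0.23 ± 0.04, adjusted p = 0.000345), as did Atg13 (-0.27 ± 0.05, adjusted p = 0.000418). Against metformin, the largest falls after Bnip3 were Atg13 (-0.64 ± 0.05) and Atg16l2 (-0.37 ± 0.04, adjusted p = 2.95e-07), and Atg16l2 turned to 0.20 on log2(FPKM + 1) (adjusted p = 0.428), where its values spread widely between replicates. The largest interaction values were Bnip3 (3.50 ± 0.08) and Bnip3l (1.39 ± 0.07) above 0 and Calcoco1, also a cargo receptor (-1.11 ± 0.09), and Tecpr1 (-1.03 ± 0.05) below 0.

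**Figure D4:**
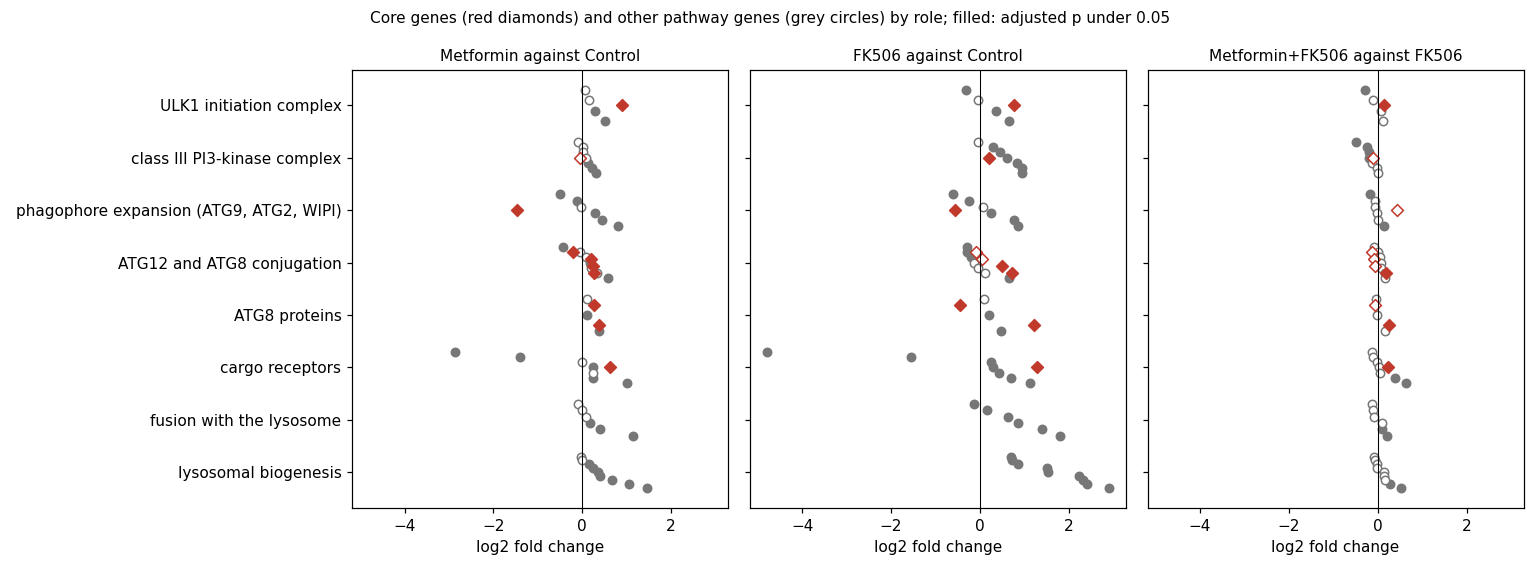
Log2 fold change of the 10 core genes (red diamonds) and the 49 other pathway genes (grey circles) by role in 3 comparisons; filled symbols have an adjusted p under 0.05. With FK506 all 9 lysosomal biogenesis genes lie above 0 and Bnip3 and Bnip3l lie at -4.80 and -1.55, while most symbols sit near 0 for the combination against FK506.

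Across the 12 samples, the gene of the pathway whose log2(FPKM + 1) followed each member most closely was found among 58 candidates. The samples form 4 treatment groups, so these values describe shared group differences. Sqstm1 followed Ctsl (Pearson r = 0.994), Map1lc3b followed Gabarap (0.988), Atg7 followed Lamp1 (0.987), Becn1 followed Snap29 (0.976), Ulk1 followed Calcoco1 (0.975) and Atg5 followed Tfe3 (0.974). Atg16l1 with Nrbf2 (0.885), Gabarapl1 with Atg3 (0.862), Wipi1 with Atg2b (0.686) and Atg12 with Atg101 (0.660) were less close. Gabarapl1 was the member least like Sqstm1, Map1lc3b, Atg7, Atg5, Becn1 and Atg16l1 (r from -0.388 to -0.839).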

How the data were processed

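For 45777 genes in 12 samples, the authors deposited raw read counts and FPKM values (fragments per kilobase of transcript, scaled to library size). A further 12 columns with per-sample values were left unused. The submitters' processing notes name mm10, bcl2fastq 2.20.0, Trimmomatic, HISAT2 2.1.0 and StringTie 2.1.3b, without their roles. How reads shared between genes or strands were counted is not stated.

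Samples were grouped by their labels, which give no batch. Counts of the 15197 genes that reached an FPKM of 0.5 in 3 or more samples were tested with edgeR 4.0.16 (quasi-likelihood, TMM) in R 4.3.3, in 1 fit of 4 groups with 8 residual degrees of freedom, on 5 comparisons and the interaction. The script was tested on simulated data. Read totals of 43402632 to 64290105 set the precision, and replicates differed by 4.10 to 16.0 times sampling noise (chi-square per degree of freedom), so none was a library deposited again. Named genes are the 10 members, the 3 largest called rises and falls among 49 other pathway genes per comparison (2 for the interaction), and each member's closest gene by Pearson r. ATG8 genes, Tfeb and marker genes printed beside them were added after their values were seen. The members and lists were chosen with earlier results of these data known. Alternatives used DESeq2 1.42.0, limma 3.58.1, other scalings and filters, a replicate block and leaving out each sample. RefSeq positions and promoters are on GRCm38.p6, while the processing notes name mm10.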

Additional observations from a re-analysis of the deposited data

Results flagged for a closer look

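The effect of metformin with FK506 differed from its effect without FK506, by the test of the interaction term in edgeR's fit, for 6 core genes. Among the 49 other pathway genes the term was called higher for 4 (8.16%, beside 22.5% of all genes tested). It was called lower for 23 of them (46.9%, beside 24.0%). The core genes were Wipi1 (1.89 on the log2 scale), Ulk1 (-0.77), Map1lc3b (-0.45), Sqstm1 (-0.40), Atg5 (-0.39) and Atg12 (-0.31). The 2 largest values in each direction among the other pathway genes were Bnip3 (3.50), Bnip3l (1.39), Calcoco1 (-1.11) and Tecpr1 (-1.03). B cell markers moved with the same term, all 10 of 10 being lower (median -1.60), as did the CD8 T and NK cell markers, of which 3 of the 4 tested were lower and 1 was not called (median -1.32, with Eomes at -2.15). Of the 10 myeloid markers 2 were higher (Mpeg1 at 1.66 and Csf1r at 3.82), 1 was lower (Cd68 at -0.83) and 7 were not called, and of the 10 T cell markers 3 were higher (Cd2 at 0.45, Cd5 at 0.48 and Zap70 at 0.44), 2 were lower (Cd3d at -0.29 and Cd247 at -0.18) and 5 were not called. Their part in these values was not tested.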

How the results depend on the processing

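The 20 other settings were DESeq2, library totals, no filter, a filter at a mean FPKM of 1, limma on log2(FPKM + 1), on log2(FPKM + 0.1) and after quantile normalization, the replicate block, and each of the 12 samples left out. Depth limits Wipi1, with 32 to 125 reads, most. The cause of the changes below was not tested, except that the filter at a mean FPKM of 1 removed Wipi1.

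Members called lower with FK506 numbered 1 in place of 2 on library totals, with the stricter filter and in limma on FPKM with either pseudocount. For the combination against Control they numbered 0 on library totals and with either pseudocount, and 1, Wipi1 (-0.31), after quantile normalization. With the stricter filter 1 member was lower with metformin and 0 had a higher interaction. For the combination against FK506, 2 in place of 4 members were higher without a filter, in limma with either pseudocount and after quantile normalization, and 1 was lower with DESeq2 and either pseudocount. Of the other pathway genes, 3 in place of 9 fell with FK506 and 4 in place of 9 with the combination on library totals and with either pseudocount, 5, 4 and 4 in place of 11 fell against metformin on these settings, and 4 in place of 7 rose against FK506 with either pseudocount.

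With 1 sample left out, members lower with FK506 ranged from 1 to 2, members lower with the combination against Control from 1 to 2, and members higher and lower against FK506 from 2 to 4 and from 0 to 2. The higher interaction ranged from 1 to 2, and other pathway genes higher against FK506 from 4 to 8.

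Signs turned for Atg12 with FK506 (0.14 on library totals, 0.13 with either pseudocount) and with the combination against Control (0.061, 0.026 and 0.028), for Gabarapl1 (0.035, 0.010 and 0.010) and Wipi1 (0.078, 0.031 and 0.064) in the latter, and for Atg16l1 there (0.21, 0.18 and 0.19, 0.0063 with DESeq2, 0.026 with the stricter filter and 0.054 after quantile normalization). Becn1 with metformin turned to 0.085 after quantile normalization, Ulk1 in the combination against metformin to -0.035 without a filter, and Atg16l2 there to 0.20 and 0.21 with the pseudocounts and 0.095 after quantile normalization. With 1 sample left out, values also turned for Wipi1 (-0.27 to 0.053) and Atg16l1 (-0.044 to 0.061) in the combination against Control, Atg16l1 against FK506 (-0.098 to 0.0060), Ulk1 against metformin (-0.027 to 0.052), and the interaction of Atg7 (-0.052 to 0.040) and Gabarapl1 (-0.034 to 0.026).

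Samples with the same replicate number showed no shared deviations: in 18 such pairs the correlation of deviations ran from -0.071 to 0.050. This cannot tell whether they came from the same mouse or run. With the replicate block, Becn1 with the combination against Control (0.09, adjusted p = 0.0624) and Atg7 in the combination against FK506 (0.18, adjusted p = 0.0533) lost their calls, and no other call of a member changed.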
